A study of Mus musculus with 6 samples.

Results

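The genes described here are the amino acid transporter genes of the mouse solute carrier families Slc1, Slc3, Slc6, Slc7, Slc36, Slc38 and Slc43, in cortical thymic epithelial cells (cTECs) with and without the gene Psmb11. Members were taken by name, as every gene whose symbol starts with one of these family names followed by a member number. The rule found 67 of the 50600 gene identifiers in the files. It reads no measured value. Of the 67 genes, 4 carry the suffix "os" for a gene on the opposite strand of a transporter gene and encode no transporter, and some Slc6 members carry taurine, creatine or monoamines and not protein-building amino acids.

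Polyadenylated RNA came from primary cTECs of the thymus of mice aged 8 to 10 weeks. The KO group, 3 libraries named A to C, was labelled B6.B6CB-Psmb11tm1Smta (Psmb11-/-), and the WT group, 3 libraries named A to C, carried the same strain name with Psmb11+/+. Psmb11 encodes a catalytic proteasome subunit that is made in cTECs. The labels give neither the gate used to isolate the cells nor whether each library stands for a mouse of its own, and p-values therefore measure only the spread between these samples, which may be technical.

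Amino acids cross membranes through carriers that differ in substrate, in driving ion and in the membrane they sit in. Many Slc7 proteins are light chains that reach the cell surface only when joined to a heavy chain, Slc3a2 (also called CD98) or Slc3a1. Slc1 and Slc38 carriers use the sodium gradient, and most Slc6 carriers use sodium and chloride. Some Slc36 carriers use protons, among them carriers of the lysosome that receives the products of protein breakdown. Several carrier genes are known targets of the transcription factor Atf4, which rises in activity when amino acids run short.

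Gene counts came to 34265035 to 36713388 per KO library and 34660349 to 39224292 per WT library. Psmb11 had 67, 36 and 41 counts in the KO libraries, against 8293, 9297 and 10027 in the WT libraries, so the libraries carry the genotypes of their labels. Apart from Psmb11 itself, all 9 cTEC markers on the list were detected and all 9 were called lower in KO libraries, with a summed level of 2864 to 3494 CPM in KO libraries and 5373 to 5639 CPM in WT libraries. CPM are counts scaled to a common library size, and a gene was called when its adjusted p in the edgeR quasi-likelihood test over all genes was below 0.05. Other cell types' markers were present and were often higher in KO: 6 of 10 medullary epithelial (summed 5746 to 6130 CPM in KO, 4331 to 4911 CPM in WT), 6 of 8 thymic tuft (164 to 210 and 104 to 113 CPM), 8 of 11 tested dendritic cell and macrophage (67.7 to 75.4 and 35.5 to 39.5 CPM) and 8 of 10 fibroblast and pericyte markers (1223 to 1331 and 866 to 969 CPM). Over all genes tested, 12.5% were called higher and 11.1% lower in KO. Thymocyte markers were near that share, with 2 of 13 tested called higher (15.4%) and 0 lower. None of the 8 endothelial and 3 B cell markers tested was called. Of the medullary list Aire, Fezf2, Ccl21a and Cd40 were not called, and Cd40 alone had a negative log2 fold change (-0.19). Pdgfra and Pdgfrb of the fibroblast and pericyte list were not called (log2 fold changes 0.04 and 0.09). With limma on TPM 5 of the fibroblast and pericyte markers were called. Of the dendritic cell and macrophage markers 5 were called without KO library A or WT library A and 4 with limma on TPM, and Adgre1, 1 of the 8, passed the filter on low counts only through its KO libraries, so 7 of 10 were higher without it. No marker of these lists was at 0 in all libraries, and the part of those cells in the transporter results was not tested. In bulk RNA, fewer cells of a type and less RNA per cell cannot be told apart. KO library A stood apart, with the highest sums of thymocyte (99.9 CPM, against 68.4 and 55.4 CPM in the other KO libraries and 53.1 to 63.1 CPM in WT) and endothelial markers (50.2 CPM, against 16.1 and 29.4 CPM in the other KO libraries and 13.5 to 38.03 CPM in WT).

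In these bulk libraries a few of the genes had high transcript levels and many were nearly silent. On the TPM scale, which accounts for transcript length and so allows genes to be compared, the 22 members at 10 TPM or more in either genotype were led by Slc3a2, the heavy chain, with 326 ± 7.26 TPM in KO and 322 ± 7.16 TPM in WT (SD, n = 3 each). Slc6a8, the creatine carrier, followed with 184 ± 6.84 TPM in KO and 178 ± 2.54 TPM in WT. Next came Slc6a6, the taurine carrier, with 139 ± 4.15 TPM in KO and 115 ± 5.67 TPM in WT, and then Slc38a2, a sodium-coupled carrier of small neutral amino acids including glutamine, with 111 ± 2.80 and 91.3 ± 3.16 TPM. In WT libraries Slc38a2 and the alanine, serine and cysteine carrier Slc1a4 (92.2 ± 3.27 TPM) stood side by side within their spread, while in KO libraries Slc38a2 was above Slc1a4 (88.8 ± 0.778 TPM). Slc3a2, Slc6a8, Slc6a6, Slc38a2 and Slc1a4 together made up 59.3 ± 0.217% of the summed TPM of all members in KO and 58.1 ± 0.270% in WT libraries. The sum over all members was 1434 ± 21.6 TPM in KO and 1375 ± 26.2 TPM in WT libraries.

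**Figure D1:**
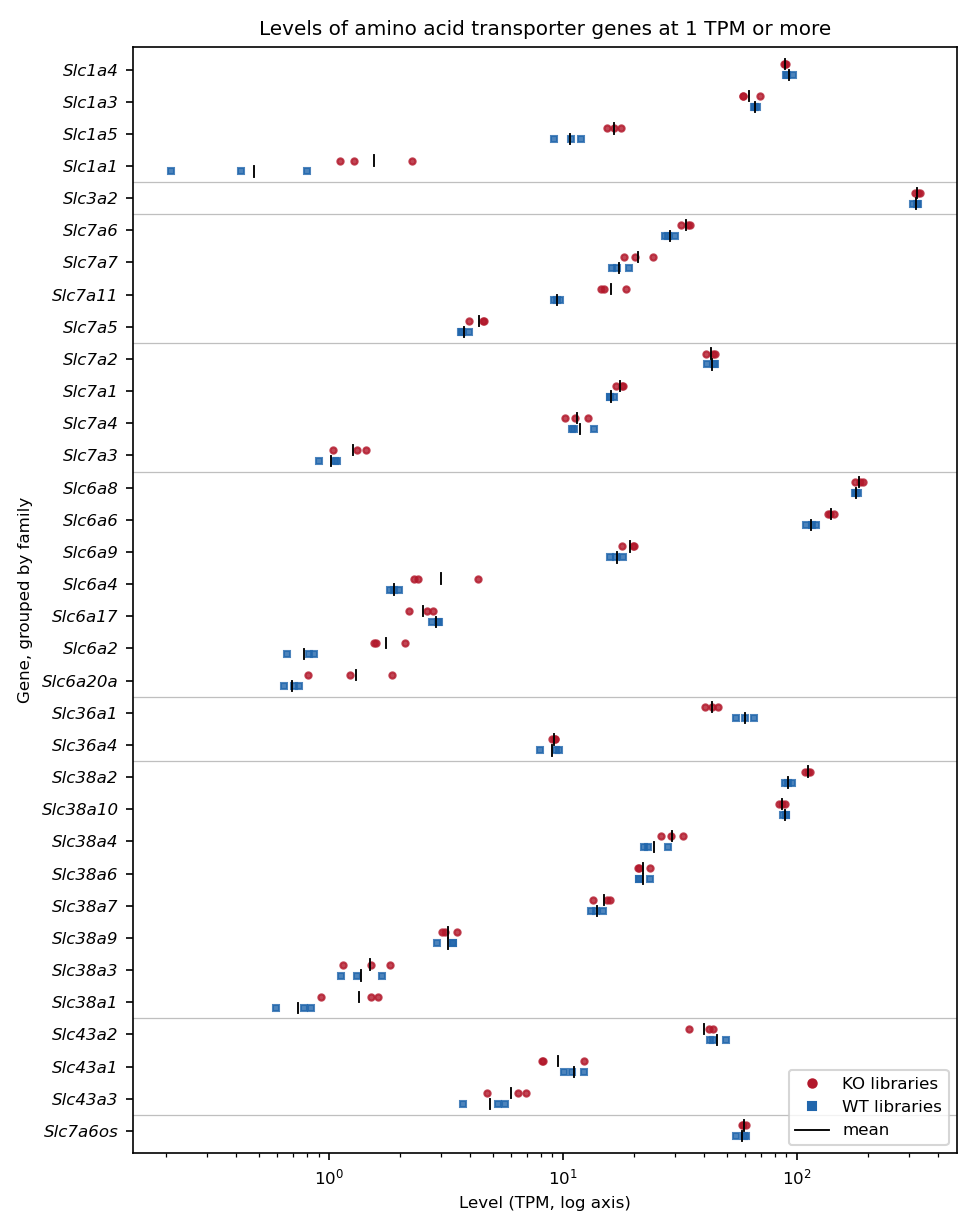
Level in TPM (log axis) of each member with a mean of 1 TPM or more in either genotype, grouped by family; circles are the 3 KO libraries, squares the 3 WT libraries and black ticks the means. Slc3a2 is the highest in both genotypes, at 326 TPM in KO and 322 TPM in WT. Of the 34 genes drawn, 21 have overlapping circles and squares and 13 do not, Slc7a11, Slc1a5, Slc1a1 and Slc36a1 among them. The background share is known in CPM only, where KO and WT libraries were fully apart for 39.3% of the 16938 genes. The 13 therefore cannot be read as a separation particular to the members.

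Of the 67 members, 38 passed the filter on low counts and were tested, and 29 did not. Of the 38, 11 were called higher in KO, 2 were called lower and 25 were not called. Over all 16938 genes tested the call rate was 23.6%, with 12.5% higher and 11.1% lower in KO, while of the transporter genes tested 34.2% were called, 28.9% higher and 5.26% lower. The median log2 fold change (KO over WT) was 0.10 over the tested members and -0.00 over all genes. Genotypes did not overlap in CPM for 16 of the 38, or 42.1%, against 39.3% of all genes tested, so by that measure the members were near the background. These shares describe the tested members and were not tested as a set. Among the members at 10 TPM or more, 6 of 22 were higher and 1 was lower, with a median of 0.01, whereas among the 16 tested members below 10 TPM 5 were higher and 1 lower, with a median of 0.35. Slc1a1 reached the filter's limit of 0.274 CPM in all KO libraries but in only 2 WT libraries, and Slc3a1 and Slc1a2 also fell short of it in some libraries.

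**Figure D2:**
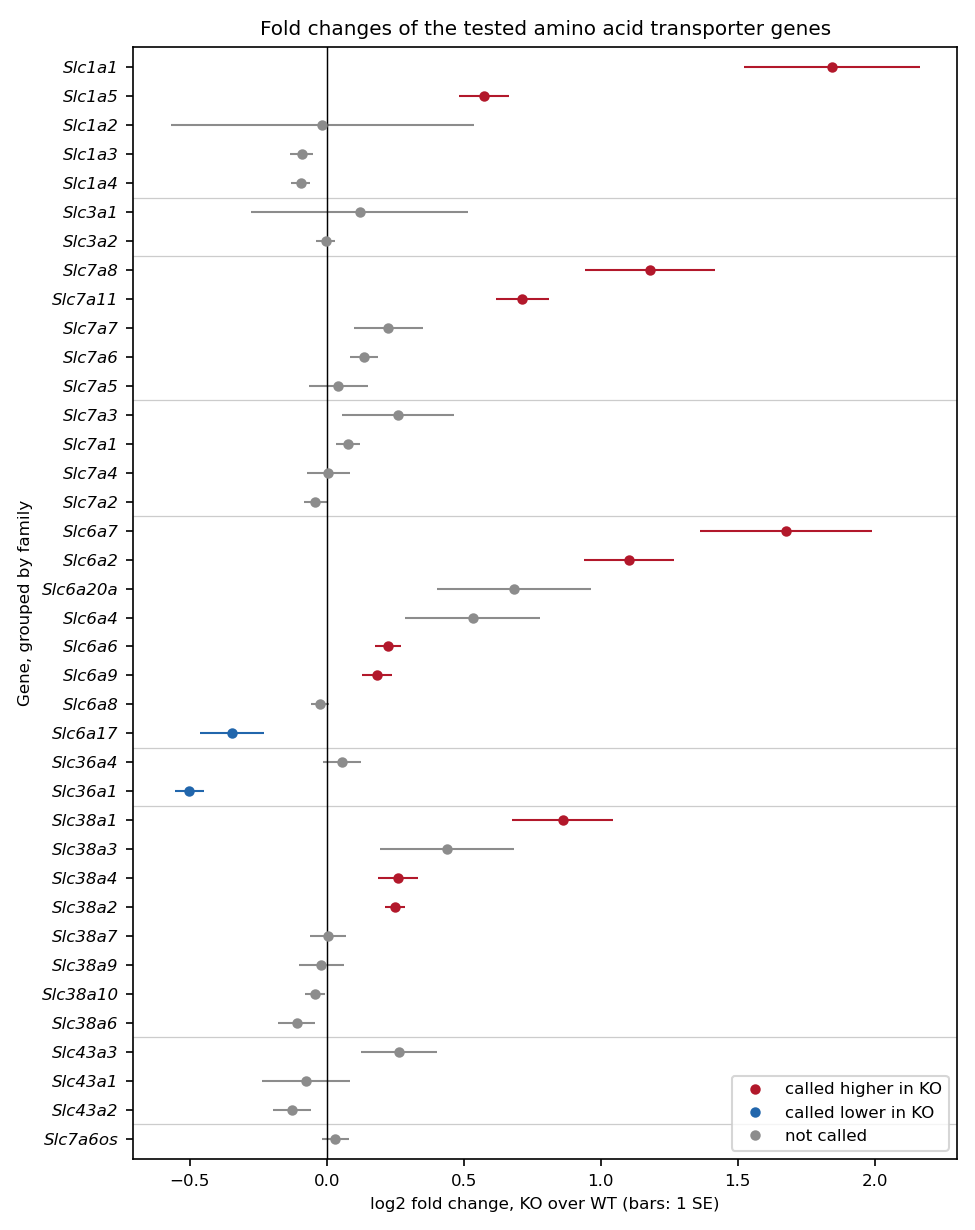
Log2 fold change, KO over WT, of the 38 tested members, grouped by family, with bars of 1 SE derived from the F statistic. The 11 called rises reach from 0.18 (Slc6a9) to 1.84 (Slc1a1), the 2 called falls are Slc6a17 at -0.35 and Slc36a1 at -0.50, and the abundant genes Slc3a2 and Slc6a8 lie near 0.

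**Figure D3:**
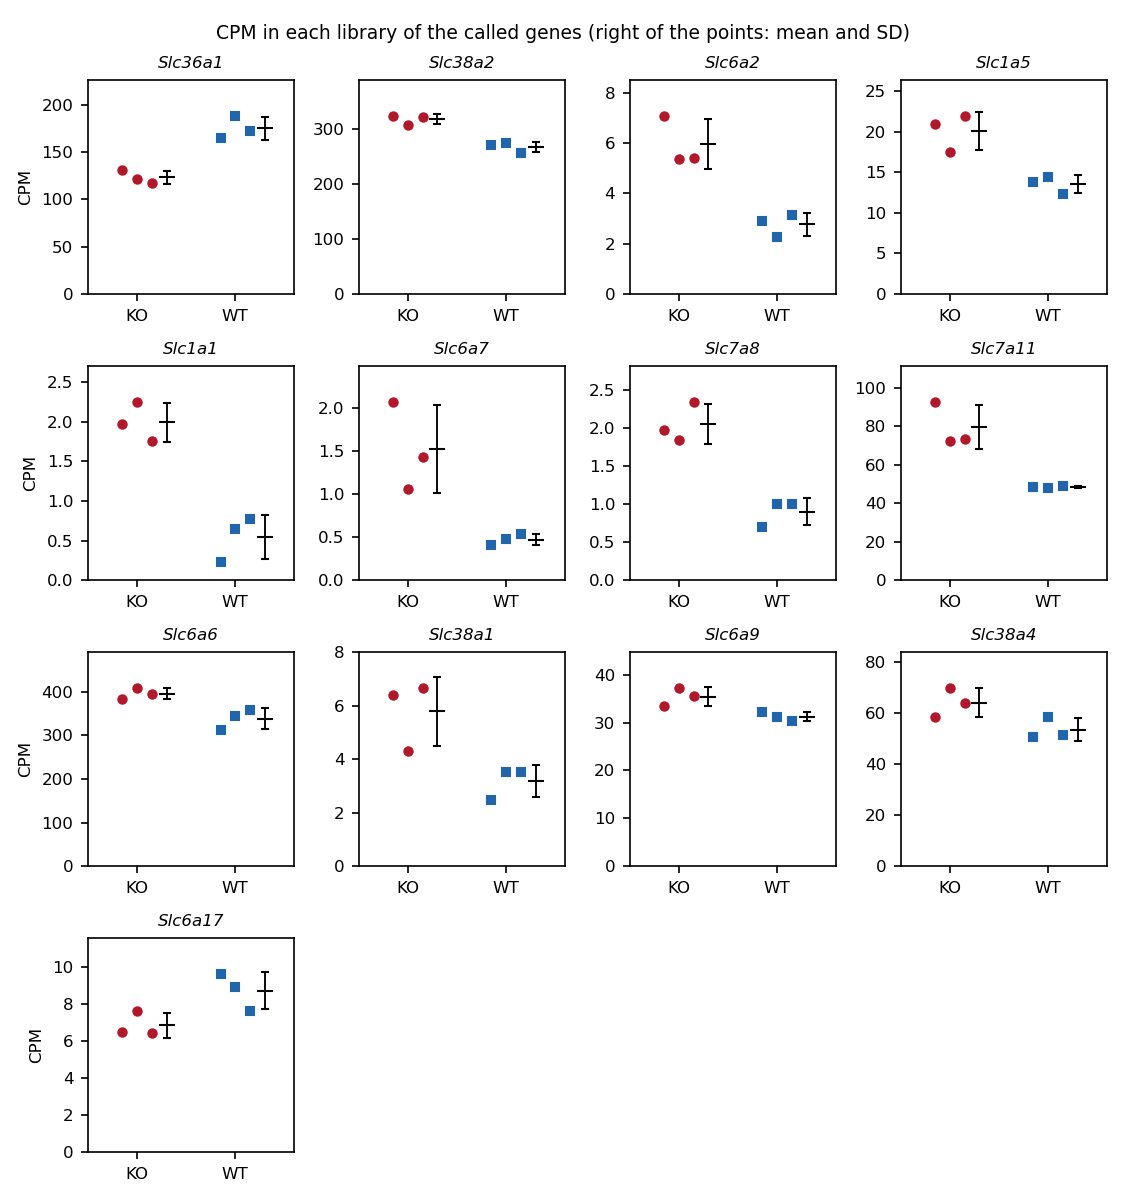
CPM of each called member in the 3 KO libraries (circles) and the 3 WT libraries (squares), with the mean and SD right of the points; every vertical axis starts at 0. Only Slc38a4 has overlapping genotypes, at 58.47 CPM in the lowest KO library and 58.49 CPM in the highest WT library.

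Among the light chains, 2 of the 5 tested genes rose (40%, against 12.5% of all genes tested) and none fell. The heavy chain Slc3a2 was not called. Slc7a11, which exports glutamate in exchange for cystine, the raw material of glutathione, had 92.7, 72.4 and 73.5 CPM in KO libraries A, B and C, against 48.5, 47.9 and 49.2 CPM in the WT libraries. Every KO library was above every WT library, and KO library A was the highest. The log2 fold change was 0.71 (SE 0.10, edgeR adjusted p = 0.00237, n = 3 each), a 1.64-fold higher level, and it was 0.59 without KO library A (edgeR adjusted p = 5.91e-08). Slc7a8, a light chain for neutral amino acids, had 1.97, 1.85 and 2.34 CPM in KO, against 0.697, 1.003 and 0.998 CPM in WT libraries. It was 2.27-fold higher (log2 fold change 1.18, SE 0.24, edgeR adjusted p = 0.00183), at a level of 0.877 TPM in KO and 0.380 TPM in WT that was the lowest of the 5 tested light chains. On the log2(TPM + 1) scale, which shrinks low genes, its log2 fold change was 0.44 and still called.

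The other light chains differed less. Slc7a6, an exchanger of cationic for neutral amino acids and the most abundant of the group, had 60.6 ± 3.08 CPM in KO libraries and 55.2 ± 3.20 CPM in WT libraries (log2 fold change 0.14, edgeR adjusted p = 0.0665), and was not called. Its call lay close to the threshold: it was called higher under 9 of 17 alternatives, among them RSEM expected counts (adjusted p = 0.0401), the 5 CPM minimum (0.0381), upper quartile factors (0.0486), no filter (0.0447), either TPM scale in limma (0.0476 and 0.0485), and without KO library B or WT library A (0.0328 and 0.0277). Slc7a7, a related exchanger that macrophages also use, had 27.9, 19.9 and 22.7 CPM in KO libraries and 21.8, 17.9 and 20.6 CPM in WT libraries and was not called (log2 fold change 0.22, edgeR adjusted p = 0.257). Its values overlapped, and without KO library A the log2 fold change was 0.08 (adjusted p = 0.572), without KO library B 0.33 (adjusted p = 0.0481) and without WT library B 0.15 (adjusted p = 0.512). With no filter on low counts it was called higher (log2 fold change 0.22, adjusted p = 0.0167). The summed dendritic cell and macrophage markers were above all WT libraries in each KO library, and their part in Slc7a7 was not tested. Slc7a5, the light chain for large neutral amino acids that proliferating cells use, had 7.59 ± 0.643 CPM in KO libraries and 7.36 ± 0.342 CPM in WT libraries and was not called. Slc3a2 itself had 300, 302 and 314 CPM in KO libraries and 302, 307 and 310 CPM in WT libraries, with a log2 fold change of -0.00 (SE 0.03, edgeR adjusted p = 0.947). The other heavy chain, Slc3a1, known for cystine uptake in kidney, had 0.453 CPM in KO libraries and 0.412 CPM in WT libraries.

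The light chains known to pair with Slc3a2 summed to 79.4, 73.0 and 74.5 TPM in KO libraries, against 62.3, 57.9 and 57.9 TPM in WT libraries. The sums of the genotypes did not overlap, while the TPM of Slc3a2 did. Slc7a11 took 23.3, 20.4 and 19.5% of that sum in KO libraries and 14.6, 16.7 and 16.2% in WT libraries. Slc7a6 took the largest share in every library, 44.5 ± 3.82% in KO and 47.9 ± 0.840% in WT. Slc7a5 took 5.78 ± 0.698% in KO and 6.36 ± 0.467% in WT. Slc3a2 exceeded the sum of its partners in every library, as transcript levels and not as protein.

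**Figure D4:**
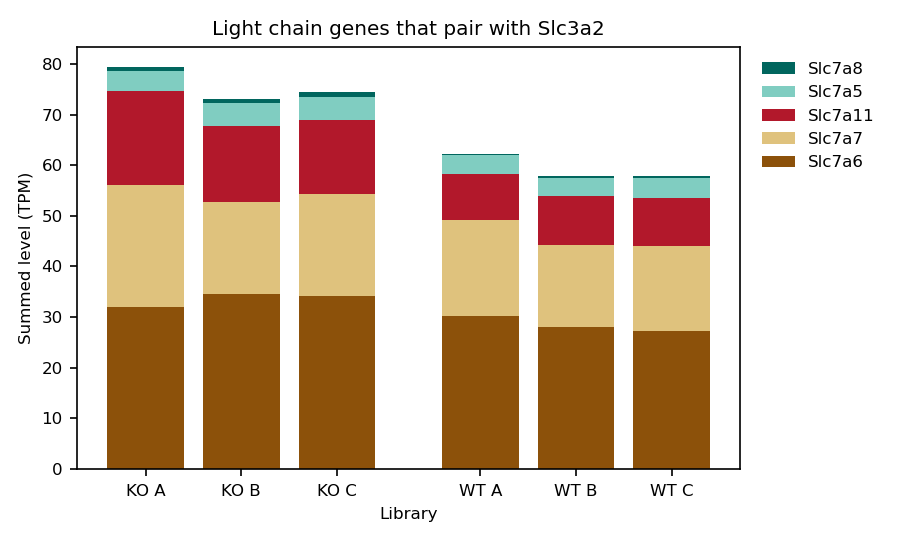
Summed level in TPM of the light chain genes that pair with Slc3a2, stacked, in each of the 3 KO libraries (left) and 3 WT libraries (right); Slc7a10, at 0 TPM in all 6 libraries, is not drawn. The KO columns reach 73.0 to 79.4 TPM and the WT columns 57.9 to 62.3 TPM, and the Slc7a11 band is thicker in KO.

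Since Slc7a11 is the most abundant light chain gene to rise, its promoter is shown, from 250 bases before to 50 bases after the RefSeq start, chr3:50443564-50443863 on the minus strand (GRCm38.p6, RefSeq). Capitals mark the letters TGATGNAA, the core of the element bound by Atf4 with C/EBP proteins, on either strand.
Slc7a11 promoter: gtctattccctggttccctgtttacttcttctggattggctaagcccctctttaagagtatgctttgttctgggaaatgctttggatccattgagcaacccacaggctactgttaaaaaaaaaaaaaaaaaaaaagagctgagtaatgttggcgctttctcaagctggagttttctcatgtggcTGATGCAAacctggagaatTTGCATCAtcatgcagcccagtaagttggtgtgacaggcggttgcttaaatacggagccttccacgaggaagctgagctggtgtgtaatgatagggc
The core occurs 2 times in this window, at bases 185 to 192 on the strand shown and at bases 204 to 211 on the other strand, counted from the first base printed. It is found in 3.97% of the 32851 promoter windows of the table and in 5 of the 70 windows of members, which belong to 4 genes, Slc7a11, Slc1a4, Slc7a7 and Slc6a21. Of the 13 called members 8 have a window in the table, and only that of Slc7a11 holds the core. The letters TGACNNNGC, the core of the antioxidant response element bound by Nfe2l2, are absent from the Slc7a11 window and occur in 12.4% of all windows. A match or its absence here describes letters in a short window and says nothing of binding.

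In the Slc1 family, 2 of the 5 tested genes rose (40%, against 12.5% of all genes tested), while the 2 most abundant were not called. Slc1a5, which exchanges glutamine with other neutral amino acids and feeds glutamine to dividing cells, had 20.9, 17.5 and 22.0 CPM in KO, against 13.8, 14.5 and 12.3 CPM in WT libraries. All KO libraries were above all WT libraries, and the gene was 1.49-fold higher (log2 fold change 0.57, SE 0.09, edgeR adjusted p = 3.72e-04). Slc1a1, a carrier of glutamate and cysteine, had 1.97, 2.25 and 1.76 CPM in KO, against 0.232, 0.641 and 0.768 CPM in WT libraries, or 73, 83 and 60 counts against 8, 23 and 30. It had the largest fold change of the tested members, 3.59-fold higher (log2 fold change 1.84, SE 0.32, edgeR adjusted p = 6.76e-04), at a low level. Its log2 fold change was 0.78 on the log2(TPM + 1) scale, and limma on TPM did not call it (adjusted p = 0.0655 and 0.0758 with pseudocounts of 1 and 0.1).

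Slc1a4 had 191 ± 2.505 CPM in KO libraries and 204 ± 5.94 CPM in WT libraries, and Slc1a3, the glial glutamate carrier that other tissues also make, had 131 ± 7.82 and 140 ± 4.41 CPM. Neither was called (log2 fold changes -0.10 and -0.09, edgeR adjusted p = 0.0564 and 0.141). Without KO library A, Slc1a3 was called lower (log2 fold change -0.14, adjusted p = 0.0152), and with no filter on low counts Slc1a4 was called lower (log2 fold change -0.10, adjusted p = 0.0483). Slc1a2 had 0.317 CPM in KO libraries and 0.318 CPM in WT libraries and was not called. The 2 other Slc1 genes, Slc1a6 and Slc1a7, had at most 9 counts in a library.

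Of the sodium-coupled Slc38 carriers, 3 of 8 tested genes rose (37.5%, against 12.5% of all genes tested) and none fell. The 3 lie near each other on chromosome 15. Slc38a2, whose transcript is known to rise when amino acids run short, had 324, 307 and 321 CPM in KO, against 270, 274 and 257 CPM in WT libraries. The genotypes were apart and the difference was small, 1.19-fold (log2 fold change 0.25, SE 0.04, edgeR adjusted p = 1.51e-04). Slc38a1, a glutamine carrier, had 6.41, 4.31 and 6.67 CPM in KO, against 2.497, 3.51 and 3.53 CPM in WT libraries, and was 1.82-fold higher (log2 fold change 0.86, SE 0.18, edgeR adjusted p = 0.00364). limma on TPM did not call it (log2 fold changes 0.42 and 0.77, adjusted p = 0.104 and 0.113 with pseudocounts of 1 and 0.1).

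Slc38a4, which carries neutral amino acids and is imprinted in mouse, had 58.5, 69.8 and 63.7 CPM in KO libraries and 50.5, 58.5 and 51.4 CPM in WT libraries. Its lowest KO and highest WT libraries met (58.47 CPM in KO library A, 58.49 CPM in WT library B), and it was called higher (log2 fold change 0.26, SE 0.07, edgeR adjusted p = 0.0292). The call was lost without KO library B or C (adjusted p = 0.0586 and 0.0919), without WT library A or C (0.0970 and 0.101) and with limma on TPM (0.209 and 0.212). By position (GENCODE M21, GRCm38) Slc38a1 spans 96571418 to 96642913 and Slc38a2 96687392 to 96699730, a gap of 44.5 kb, and Slc38a4 follows at 96994820 to 97055956, all on the minus strand.

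The members of this family that act in the lysosome or have no settled substrate were not called. Slc38a9, the lysosomal carrier that reports arginine to the growth regulator mTORC1, had 17.4 ± 1.36 CPM in KO libraries and 17.7 ± 1.66 CPM in WT libraries. Slc38a7, a lysosomal glutamine exporter, had 22.1 ± 1.40 and 22.0 ± 0.408 CPM. Slc38a10 had 165 ± 3.58 CPM in KO libraries and 171 ± 4.47 CPM in WT libraries, Slc38a6 25.5 ± 2.37 and 27.6 ± 0.739 CPM, and Slc38a3, known from liver and brain, 1.85 ± 0.513 and 1.36 ± 0.229 CPM. All their genotypes overlapped.

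The clearest fall was in the Slc36 family. Slc36a1, which moves small neutral amino acids with protons out of lysosomes and across the surface of some epithelia, had 131, 121 and 118 CPM in KO, against 164, 188 and 172 CPM in WT libraries. All KO libraries were below all WT libraries. The gene was 1.42-fold lower in KO (log2 fold change -0.50, SE 0.05, edgeR adjusted p = 5.07e-05), the smallest p of the tested members, and kept its call under all 17 alternatives, with log2 fold changes of -0.55 to -0.45. Its relative Slc36a4 had 31.5 ± 2.52 CPM in KO libraries and 30.3 ± 2.47 CPM in WT libraries and was not called (log2 fold change 0.06, edgeR adjusted p = 0.625). The 4 neighbours of Slc36a1 on chromosome 11 named by the rule, Slc36a2, Slc36a3 and the opposite strand genes Slc36a1os and Slc36a3os, had at most 5 counts in a library.

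As the member with the firmest fall, Slc36a1 is also shown by its promoter window, chr11:55204090-55204389 on the plus strand (GRCm38.p6, RefSeq). Capitals mark the letters TCACGTGA, a palindrome at the centre of the element through which TFEB and TFE3 act on lysosomal genes.
Slc36a1 promoter: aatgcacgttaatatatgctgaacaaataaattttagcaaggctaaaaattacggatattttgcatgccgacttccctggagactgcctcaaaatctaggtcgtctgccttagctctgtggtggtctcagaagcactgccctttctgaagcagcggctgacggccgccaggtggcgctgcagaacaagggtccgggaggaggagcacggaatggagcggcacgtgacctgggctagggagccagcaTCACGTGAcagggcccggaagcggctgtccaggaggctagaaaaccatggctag
The element lies at bases 247 to 254 of the window. It occurs in 0.974% of all 32851 windows and in 1 of the 70 windows of members, that of Slc36a1. The window also holds a match of TGACNNNGC, one of 12 such windows among those of members.

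The Slc6 family had 4 rises (50%) and 1 fall (12.5%) among 8 tested genes, against 12.5% higher and 11.1% lower of all genes tested. The 1 fall, of Slc6a17, lost its call under several alternatives given below. Slc6a6, the taurine carrier and the most abundant member to rise, had 383, 409 and 395 CPM in KO, against 312, 345 and 358 CPM in WT libraries. All KO libraries were above all WT libraries by a small margin, and the log2 fold change was 0.22 (SE 0.05, edgeR adjusted p = 0.00360). Slc6a8, the creatine carrier at a similar level, had 304, 310 and 313.0 CPM in KO libraries and 314, 315 and 313.3 CPM in WT libraries and was not called (log2 fold change -0.03, edgeR adjusted p = 0.629). Slc6a9, a glycine carrier, had 33.4, 37.2 and 35.6 CPM in KO, against 32.2, 31.1 and 30.3 CPM in WT libraries, and was called higher (log2 fold change 0.18, SE 0.05, edgeR adjusted p = 0.0231). That call was lost without KO library B or C (adjusted p = 0.0983 and 0.0543), without WT library B or C (0.0790 and 0.108), with unstranded counts (0.108) and with limma on TPM (0.179 and 0.175).

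Slc6a2 and Slc6a7, both at low levels, rose by larger factors. Slc6a2, the noradrenaline carrier known from sympathetic neurons, had 7.09, 5.37 and 5.41 CPM in KO, against 2.90, 2.26 and 3.15 CPM in WT libraries (2.15-fold higher, log2 fold change 1.10, SE 0.16, edgeR adjusted p = 1.53e-04). Slc6a7, the brain proline carrier, had 2.07, 1.06 and 1.43 CPM in KO, against 0.406, 0.473 and 0.537 CPM in WT libraries (3.20-fold higher, log2 fold change 1.68, SE 0.31, edgeR adjusted p = 0.00109). For both genes the genotypes were apart and KO library A was the highest, and without it the log2 fold changes were 0.96 and 1.38. On the log2(TPM + 1) and log2(TPM + 0.1) scales Slc6a7 had log2 fold changes of 0.42 and 1.13 and was not called by limma (adjusted p = 0.0964 and 0.0733), and Slc6a2 had 0.63 and 1.07 and was called. Slc6a17, which loads neutral amino acids into synaptic vesicles, fell, with 6.49, 7.60 and 6.44 CPM in KO, against 9.61, 8.91 and 7.63 CPM in WT libraries (log2 fold change -0.35, SE 0.12, edgeR adjusted p = 0.0420). The highest KO and lowest WT libraries of Slc6a17 nearly met, and its call was lost without KO library A or C (adjusted p = 0.102 and 0.124), without WT library A or B (0.176 and 0.128) and under 6 other settings.

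Slc6a4, the serotonin carrier, had 5.36, 2.55 and 3.51 CPM in KO libraries and 2.70, 2.20 and 2.99 CPM in WT libraries, and Slc6a20a, a carrier of proline and related imino acids, had 1.21, 1.68 and 1.23 CPM in KO libraries and 0.581, 1.06 and 0.921 CPM in WT libraries. Neither was called (edgeR adjusted p = 0.150 and 0.0929), and Slc6a4 was called higher without KO library B (log2 fold change 0.75, adjusted p = 0.0215) and with no filter on low counts (0.52, adjusted p = 0.0328). The genotypes overlapped for Slc6a4 and were apart for Slc6a20a. The remaining 13 Slc6 genes were too low to test. Among them Slc6a14, a carrier of neutral and cationic amino acids in mucosal epithelia, was the highest, with 24, 21 and 8 counts in KO and 9, 6 and 10 counts in WT libraries. Without KO library C it was tested and called higher (log2 fold change 1.40, edgeR adjusted p = 0.0372). It passed the filter on low counts there only through KO libraries A and B, so that call cannot count as support for a rise. Tuft cell and medullary epithelial markers were higher in the same KO libraries and highest in KO library A (210 and 6130 CPM in summed level), and their part in the low Slc6 transcripts was not tested.

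The carriers of arginine and lysine and those of the Slc43 family did not pass the test. Slc7a2, inducible in many cells and the main cationic carrier gene here, had 173 ± 9.68 CPM in KO libraries and 178 ± 3.42 CPM in WT libraries, and Slc7a1, its constitutive relative, 67.7 ± 3.66 and 64.1 ± 0.163 CPM. Slc7a4, a relative without known transport, had 14.9 ± 1.16 CPM in KO libraries and 14.8 ± 0.182 CPM in WT libraries, and Slc7a3 had 1.87 ± 0.0570 and 1.56 ± 0.201 CPM. Their edgeR adjusted p-values lay between 0.223 and 0.971. Slc43a2, which lets large neutral amino acids pass by facilitated diffusion, had 118, 139 and 143 CPM in KO libraries and 142, 151 and 143 CPM in WT libraries (log2 fold change -0.13, adjusted p = 0.237). KO library A was the lowest of the 6, and the log2 fold change without it was -0.05, while with no filter on low counts the gene was called lower (log2 fold change -0.14, adjusted p = 0.00612). Slc43a1, a related carrier, had 14.9 ± 3.42 CPM in KO libraries and 15.7 ± 1.83 CPM in WT libraries, and Slc43a3, which carries purine bases, 6.71 ± 0.936 and 5.58 ± 0.801 CPM. The protein-coding Slc7a6os, next to Slc7a6 on the other strand, had 47.6 ± 0.962 CPM in KO libraries and 46.6 ± 2.49 CPM in WT libraries.

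Of the 29 members not tested, 6 had no count in any library: Slc7a12, Slc7a13, Slc6a21, Slc36a3, Slc38a5 and Slc6a19os. With 3 counts as the limit that a count of 0 allows, this places them below 0.0765 to 0.0876 CPM per library, counting error only. The other 23 had up to 24 counts in a library and up to 0.46 TPM. They include Slc6a11, Slc6a12 and Slc6a13, the dopamine carrier Slc6a3, the glycine carrier Slc6a5 and the kidney and gut carriers Slc6a18, Slc6a19 and Slc7a9.

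Both light chain genes Slc7a7 and Slc7a8 are neighbours of the targeted gene. On chromosome 14 (GENCODE M21, GRCm38) Slc7a7 spans 54369442 to 54417780 and lies 203.7 kb before Psmb11 (54621433 to 54629556), and Slc7a8 spans 54722209 to 54781946 and lies 92.7 kb after it. Within 0.5 Mb of Psmb11, 33 other genes were tested, of which 4 were called higher and 8 lower in KO (36.4%), and within 10 Mb 17 of 194 were higher and 27 lower (22.7%), against 23.6% of all genes tested. Slc7a8 is 1 of the 4 that were higher within 0.5 Mb. DNA linked to the targeted locus and the loss of Psmb11 cannot be told apart in this design.

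The genes around the transporters did not move as 1 block. Of 18 tested carriers of amino acids and peptides outside these families 5 rose (27.8%) and 4 fell (22.2%), at a median log2 fold change of -0.02, against 12.5% and 11.1% of all genes tested. The rises numbered 3 without KO library B or WT library B, 2 at a mean of at least 5 CPM, where 14 were tested, and 2 with limma on TPM, where 1 fell. Slc15a2, an uptake carrier of small peptides, had 13.9 ± 3.32 CPM in KO libraries and 5.89 ± 0.317 CPM in WT libraries, and Slc15a3, a peptide and histidine carrier of endosomes and lysosomes in immune cells, 2.46 ± 0.152 and 1.12 ± 0.225 CPM. Mfsd12, needed for cysteine import into lysosomes, fell to 35.0 ± 5.01 CPM in KO, against 68.9 ± 5.07 CPM in WT libraries. The mitochondrial carriers Slc25a29 (basic amino acids) and Slc25a13 (aspartate and glutamate) also fell, to 11.8 ± 1.16 and 43.6 ± 3.98 CPM in KO, against 15.6 ± 0.814 and 51.8 ± 2.25 CPM in WT libraries. The edgeR adjusted p-values of these 5 genes lay between 4.71e-04 and 0.00801. Slc17a8, a vesicular glutamate carrier counted among the rises, had 0.532 CPM in KO libraries and 0.0910 CPM in WT libraries, but it passed the filter only through its KO libraries, and 4 of 17 rose without it. Dendritic cell and macrophage markers, which rose in the same libraries (median log2 fold change 1.01), stand beside the rise of Slc15a3, and their part in it was not tested.

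Genes of amino acid synthesis and breakdown fell more often than they rose, 10 (38.5%) and 4 (15.4%) of 26 tested, with a median log2 fold change of -0.07, against 11.1% lower and 12.5% higher over all genes tested. With limma on TPM the falls numbered 7 and the rises 2. Psat1 and Phgdh, enzymes of serine synthesis, had 300 ± 6.18 and 105 ± 0.656 CPM in KO, against 396 ± 3.06 and 124 ± 1.65 CPM in WT libraries. Got1, the cytosolic aspartate aminotransferase, Cth, which makes cysteine from cystathionine, and Oat, which handles ornithine, had 24.2 ± 0.993, 20.8 ± 1.04 and 828 ± 24.6 CPM in KO, against 35.2 ± 1.25, 31.2 ± 2.35 and 979 ± 12.2 CPM in WT libraries. Aldh18a1, of proline synthesis, rose to 36.9 ± 2.29 CPM in KO, against 27.9 ± 1.45 CPM in WT libraries. The edgeR adjusted p-values of these 6 genes lay between 6.35e-07 and 1.53e-04. cTEC markers other than Psmb11 were lower in the same libraries (median log2 fold change -0.75), and the part of the cell mixture in these falls was not tested.

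In the amino acid response governed by Atf4, 4 of 22 tested genes rose and 2 fell, with a median log2 fold change of -0.01. At 27.3% called (18.2% higher and 9.09% lower) the list was near the 23.6% of all genes tested (12.5% and 11.1%). Nupr1, a stress-induced chromatin protein, had 27.0 ± 5.34 CPM in KO libraries and 10.1 ± 0.788 CPM in WT libraries, and Cebpb, a partner of Atf4, 55.1 ± 1.98 and 46.2 ± 2.61 CPM. Cebpg and Atf5 rose by less (log2 fold changes 0.14 and 0.13). Asns, the asparagine synthetase, a standard Atf4 target that also stands in the synthesis list, fell to 22.7 ± 0.496 CPM in KO, against 27.5 ± 0.593 CPM in WT libraries, and Wars, the tryptophan tRNA ligase, to 59.3 ± 1.56 CPM, against 66.1 ± 0.605 CPM. The edgeR adjusted p-values of these 6 genes lay between 2.39e-04 and 0.0482. Atf4 itself, named here after its values were seen, had 193 CPM in KO libraries and 183 CPM in WT libraries and was not called (edgeR adjusted p = 0.156). The rises numbered 2 without KO library A or WT library A, and limma on TPM called 1 fall.

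Of 33 tested genes by which mTORC1 senses amino acids, 2 rose and 6 fell, with a median log2 fold change of -0.04. At 24.2% called the list was near the background of 23.6% in total. By direction 6.06% rose and 18.2% fell, against 12.5% and 11.1% of all genes tested. Castor1, the arginine sensor, had 59.3 ± 0.387 CPM in KO libraries and 78.2 ± 1.90 CPM in WT libraries (log2 fold change -0.40, edgeR adjusted p = 3.80e-06). Rragd, a GTPase that brings mTORC1 to the lysosome, had 63.3 ± 6.38 CPM in KO libraries and 48.0 ± 2.95 CPM in WT libraries (log2 fold change 0.40, adjusted p = 0.00263). Rptor, Sesn1, Lamtor4 and Sesn3 fell, by 0.16, 0.17, 0.17 and 0.12 on the log2 scale. The falls numbered 4 without KO library B or WT library B, 3 without WT library C and 2 with limma on TPM, and the rises numbered 1 without WT library A or WT library C. Of 12 tested glutathione genes 1 rose and 3 fell, with Gpx4, Gsr and Gss at 132 ± 3.38, 69.3 ± 2.11 and 21.6 ± 0.713 CPM in KO, against 147 ± 1.95, 76.8 ± 0.189 and 24.5 ± 0.875 CPM in WT libraries, and Ggt5 at 106 ± 5.57 and 96.7 ± 2.21 CPM. Their edgeR adjusted p-values lay between 0.00348 and 0.0423, and Ggt5 was no longer called without WT library B or C. The 33.3% called (8.33% higher and 25% lower) stood against 23.6% of all genes. With limma on TPM 2 rises and 1 fall were called. Gclc, which catalyses the limiting step of glutathione synthesis and was named after its values were seen, had 185 CPM in KO libraries and 139 CPM in WT libraries and was not called (edgeR adjusted p = 0.0830).

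**Figure D5:**
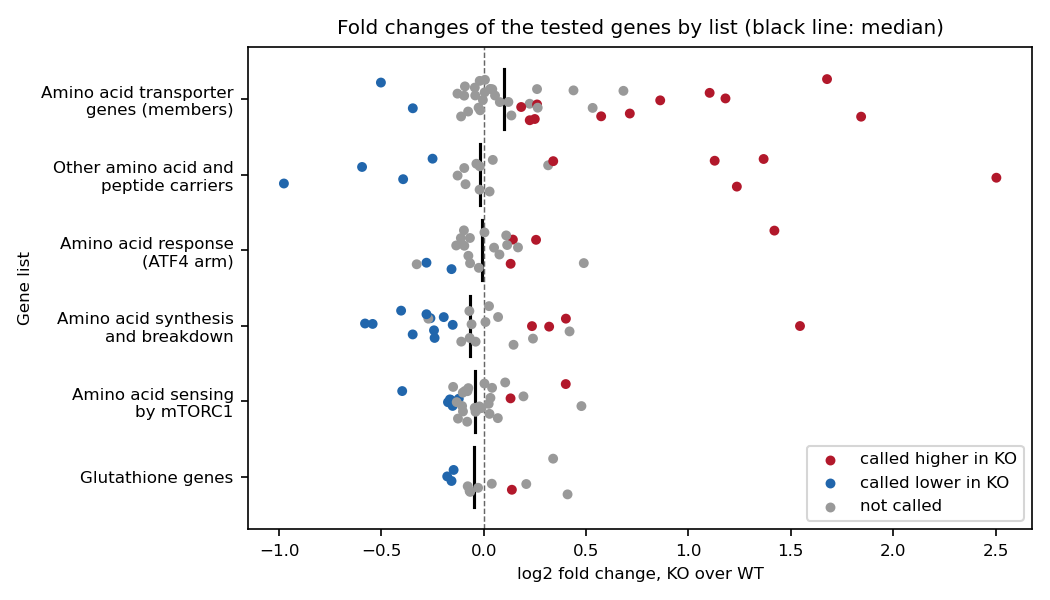
Log2 fold change, KO over WT, of every tested gene of the transporter members and of 5 related lists, with black lines at the medians and colours for the call; vertical scatter within a list has no meaning. The medians lie at 0.10 for the transporter genes and between -0.07 and -0.01 for the related lists, and the blue points of synthesis and breakdown genes number 10.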

How the data were processed

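The tools named in the submitters' processing notes are bcl2fastq 2.17, STAR 2.5.1b and RSEM 1.2.28, with no role given. The same notes list GRCh38, a human build, while the identifiers are mouse Ensembl identifiers, so the build used is uncertain. Symbols and positions were looked up by identifier in GENCODE M21 (GRCm38), and 50376 of 50600 identifiers (99.56%) matched. The authors deposited raw counts by gene with columns for each strand setting, and the opposite-strand column was used. Lines that name no gene held 18.4 to 19.8% of a library's total and were left out. The authors also deposited RSEM expected counts, rounded here to whole numbers, and TPM.

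The 3 KO and 3 WT libraries were compared over genes kept by filterByExpr, with the edgeR 4.0.16 quasi-likelihood test (robust, TMM factors 0.9937 to 1.0118) in R 4.3.3, with Benjamini-Hochberg adjustment over 16938 genes. SEs derive from the F statistic and are approximate. Fold changes are KO over WT. Libraries of a genotype differed by 5.20 to 9.35 times the variance of counting alone. The method was tested on simulated data. All called members were named, with uncalled members at 10 TPM or more and the most abundant uncalled member of each family; other members are described by their values, and up to 6 called genes of each related list by p. Members, lists and tests were chosen with earlier results of these data known. Alternatives were RLE and upper quartile factors, DESeq2 1.42.0, no filter, a mean of at least 5 CPM, expected counts, limma 3.58.1 on log2(TPM + 1) and log2(TPM + 0.1), unstranded counts, a replicate block, leaving out each library and, added after the data were seen, no robust moderation. Values of 1 untested member are not reported here.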

Additional observations from a re-analysis of the deposited data

How the results depend on the processing

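The members called numbered 13 in edgeR and 13 with RLE factors, 14 with upper quartile factors (the 13 and Slc7a6), 18 with no filter (the 13 and Slc1a4, Slc43a2, Slc6a4, Slc7a6 and Slc7a7), 13 with RSEM expected counts (12 of them shared), and 12, all shared, with DESeq2, with unstranded counts and without robust moderation. They numbered 8 at a mean of at least 5 CPM, where 27 members were tested. limma called 8 members and 1927 genes on log2(TPM + 1), and 8 members and 1857 genes on log2(TPM + 0.1), against 3989 genes in edgeR. Leaving out 1 library gave 11 to 14 members and 2715 to 3661 genes. Slc36a1, Slc38a2, Slc7a11, Slc1a5 and Slc6a6 kept their calls under all 17 alternatives. The labels do not say whether the letters A to C pair the libraries. Same-letter deviations correlated at -0.0156, 0.0818 and -0.0341. The largest correlation was 0.0837, of KO library A with WT library C. Values this small and this close to each other cannot decide whether the letters pair libraries. With a replicate block 16 members and 4097 genes were called, the 13 and also Slc43a2, Slc7a6 and Slc7a7. Up to 24 counts in a library limit what can be seen of the 29 untested members.

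Log2 fold changes of uncalled genes near 0 changed sign and stayed uncalled, and the cause was not tested. Slc3a2 was at 0.0052 with upper quartile factors, 0.0143 at a mean of at least 5 CPM, 0.0185 on log2(TPM + 1) and 0.01855 on log2(TPM + 0.1). Slc7a4 was at -0.00312 with no filter, -0.0458 on log2(TPM + 1) and -0.0493 on log2(TPM + 0.1). Slc6a8 was at 0.0473 and 0.0475 on these scales, and Slc38a7 at -0.00482 with no filter. Without 1 library, Slc3a2 ranged from -0.0263 to 0.00858, Slc7a4 from -0.0424 to 0.0674, Slc36a4 from -0.0142 to 0.11, Slc38a7 from -0.0502 to 0.0364, Slc43a1 from -0.277 to 0.0424 and Slc7a6os from -0.0144 to 0.0577.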
